A study of Mus musculus with 6 samples.

Results

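The genes described here encode the MHC class II antigen presentation machinery of the mouse, together with Ciita, their master regulator. The 10 genes were taken by name: the classical chains H2-Aa, H2-Ab1 and H2-Eb1, the invariant chain Cd74, the DM chains H2-DMa, H2-DMb1 and H2-DMb2, the DO chains H2-Oa and H2-Ob, and Ciita. All 10 had a row among the 24047 rows of the count table. RNA sequencing libraries of monocytes were compared, 3 from kidney (labelled double_pos, replicates 7, 8 and 22) and 3 from spleen and bone marrow (labelled double, replicates 2, 24 and 26). Every mouse had nephrotoxic nephritis, in which antibody against the glomerulus injures the kidney, and tissues were taken on day 13. The labels give 10 mice of strain C5/Bl6 for the series, wild type and aged 8 to 10 weeks, and name no drug. No library came from a healthy mouse, the labels do not name the sorting markers, and they do not say whether a library came from 1 animal or a pool. The kidney monocytes were enriched with a monocyte isolation kit and then sorted, and the labels describe no such enrichment for spleen and marrow, so tissue and handling cannot be told apart. Replicates are libraries with separate numbers, so a p-value here reflects the spread among libraries, which may be technical.

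Class II molecules display peptides from the endosomal pathway to CD4 T cells. The alpha and beta chains assemble with the invariant chain, which blocks the groove and steers the complex to endosomes. There proteases trim the invariant chain, DM removes the last fragment and edits the peptide, and DO restrains DM. CIITA does not bind DNA itself. It is recruited to class II promoters by RFX, CREB and NF-Y proteins, and interferon gamma is its best known inducer. Monocytes carry little class II when they leave the marrow, and monocyte-derived cells in tissue can gain it.

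Total counts lay between 3492391 (kidney replicate 22) and 9727489 (spleen and marrow replicate 26). Levels are given as CPM, counts scaled to library size with TMM factors, which correct for differences in composition. Monocyte transcripts were abundant in all 6 libraries: Lyz2, which encodes lysozyme, lay between 29441 and 53871 CPM and Ccr2, a chemokine receptor, between 623 and 1168 CPM. Of the 9 monocyte markers, 5 rose in kidney (Csf1r, Itgam, Cd14, Fcgr1 and Cx3cr1) and 2 fell (Ly6c2 and Lyz2). Over all tested genes, 7.83% rose and 5.9% fell. Ly6c2 stood at 5412 ± 423 CPM in spleen and marrow and at 627 ± 270 CPM in kidney (mean ± SD, n = 3 each). Kidney replicate 22 stood apart: 752 of the 10626 tested genes had a count of 0 there and at least 1 count in each other library, against 10 to 20 such genes in any other library. Its summed neutrophil markers were 43717 CPM, against 1074 and 4343 in kidney replicates 7 and 8. The spleen and marrow libraries held 23372 to 30025 CPM of these markers. Kidney replicate 8 had the highest endothelial marker sum, 909 CPM, against 31.2 and 20.6 in replicates 7 and 22.

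The class II genes took a larger share of the kidney libraries. The 10 genes together held 0.212%, 0.148% and 0.157% of all counts in the spleen and marrow libraries (2, 24 and 26 in that order, as throughout), against 1.33%, 2.92% and 1.32% for kidney (7, 8 and 22). Of the 10 genes, 9 passed the filter on low counts (H2-Ob did not). Of these 9, 6 rose in kidney and 0 fell by edgeR's quasi-likelihood test at an adjusted p under 0.05. The same test called 7.83% of all 10626 genes higher and 5.9% lower. The 6 that rose were H2-Aa, H2-Ab1, H2-Eb1, Cd74, H2-DMa and H2-DMb1. In the same 6, each kidney library lay above each spleen and marrow library, as it did for 19.2% of all tested genes, while 18.8% lay wholly below. The median log2 fold change (kidney over spleen and marrow) was 1.96 over the 9 tested members and 0.05 over all tested genes. At an unadjusted p under 0.05, Ciita was higher as well and no member was lower.

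**Figure D1:**
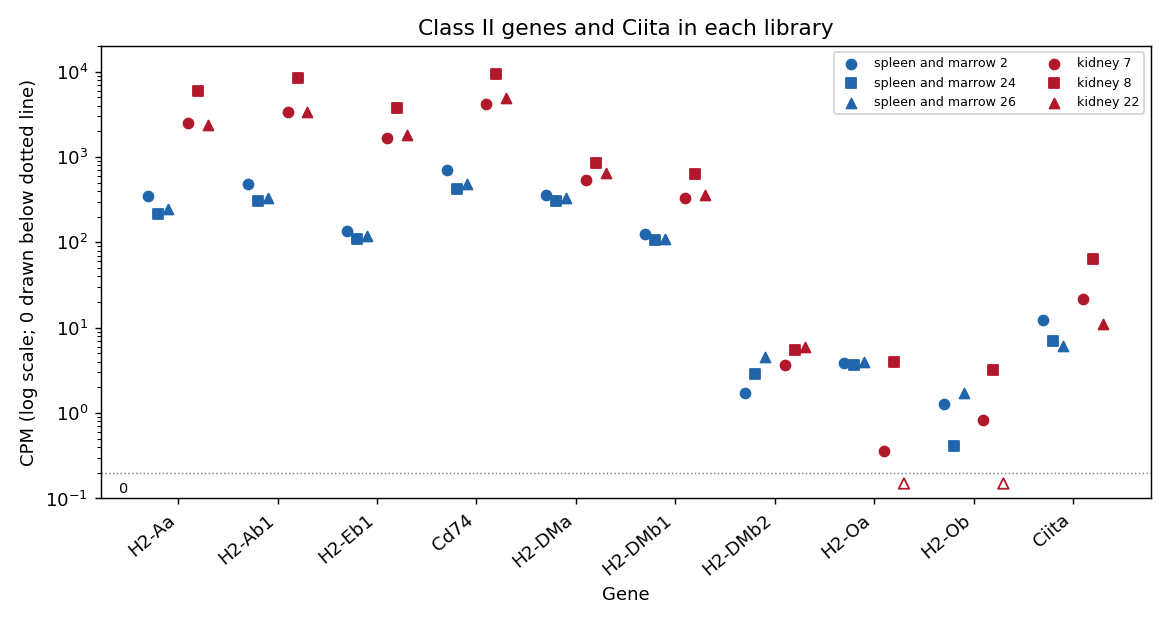
CPM of each gene (log axis) in the 3 spleen and marrow libraries (blue) and the 3 kidney libraries (red); each point is a library and a count of 0 is drawn as an open symbol below the dotted line. The classical chains and Cd74 are separated by the widest gap between groups, and for Ciita kidney replicate 22 (11.2 CPM) lies below spleen and marrow replicate 2 (12.3 CPM).

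The classical chains form the peptide-binding molecule itself. H2-Ab1, the beta chain of I-A, stood at 478, 306 and 331 CPM in spleen and marrow. In kidney it stood at 3350, 8327 and 3412 CPM. Every kidney library lay far above every spleen and marrow library, and replicate 8 stood well above the other kidney libraries. Its log2 fold change was 3.76 ± 0.41 (SE), with edgeR adjusted p = 0.00149. H2-Aa, the alpha chain that pairs with it, was likewise highest in replicate 8 in kidney and in replicate 2 in spleen and marrow, with 345, 217 and 248 CPM in spleen and marrow and 2472, 5986 and 2342 CPM in kidney. It rose by a log2 fold of 3.74 ± 0.41 (edgeR adjusted p = 0.00157).

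H2-Eb1, the beta chain of I-E, showed the largest log2 fold change of the 9 tested members, at 4.29 ± 0.34 (edgeR adjusted p = 0.000634). It stood at 138, 111 and 118 CPM in spleen and marrow and at 1666, 3700 and 1788 CPM in kidney. The spleen and marrow values lay close together (122 ± 13.8 CPM, mean ± SD, n = 3), and the kidney values again peaked in replicate 8. The alpha chain of I-E is not functional in mice of the b haplotype. H2-Ea-ps, the row for that gene, had 1 count in spleen and marrow replicate 2 and none elsewhere, and H2-Eb2, a further beta chain gene, had 3 counts over all libraries.

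Cd74 encodes the invariant chain. It stood at 706, 420 and 478 CPM in spleen and marrow and at 4141, 9335 and 4972 CPM in kidney. Cd74 rose by a log2 fold of 3.52 ± 0.35 (edgeR adjusted p = 0.00117). As for the classical chains, spleen and marrow replicate 2 and kidney replicate 8 were the highest of their groups. Together the 3 classical chains and Cd74 summed to between 1054 and 1667 CPM in spleen and marrow. The kidney sums were 11628, 27347 and 12515 CPM. H2-Aa, H2-Ab1, H2-Eb1 and Cd74 were called in all 18 alternative analyses, among them the one without kidney replicate 8.

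DM edits the peptides that class II carries, and 2 of its 3 chain genes, H2-DMa and H2-DMb1, rose. H2-DMa, the alpha chain, stood at 361, 303 and 332 CPM in spleen and marrow and at 531, 853 and 651 CPM in kidney. Its groups did not overlap, but the gap between them was smaller than the range within kidney. It rose by a log2 fold of 1.03 ± 0.19 (edgeR adjusted p = 0.0114). That call was lost without spleen and marrow replicate 2, 24 or 26 (adjusted p = 0.0507, 0.0722 and 0.0723), while the fold change stayed between 0.83 and 1.19 on leaving out any 1 library. It was also lost with limma-trend on log2(FPKM + 1) (adjusted p = 0.0597). H2-DMb1, a beta chain, rose from 113 ± 9.0 to 441 ± 166 CPM (mean ± SD, n = 3 each), with 124, 107 and 110 CPM against 328, 631 and 363. Its log2 fold change was 1.96 ± 0.26 (edgeR adjusted p = 0.00322), called in all 18 alternative analyses.

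H2-DMb2, the other DM beta chain, differed between the count and FPKM tables. It held 15, 21 and 42 counts in spleen and marrow against 31, 43 and 20 for kidney. This gave 1.72, 2.87 and 4.50 CPM against 3.67, 5.43 and 5.87 CPM, with overlapping groups and no call (log2 fold change 0.71 ± 0.53, edgeR adjusted p = 0.433). In the authors' FPKM table, which scales for transcript length and depth, the groups did not overlap, at 16.7, 13.6 and 16.0 against 41.1, 88.5 and 33.5. There limma-trend on log2(FPKM + 1) gave a log2 fold change of 1.63 ± 0.35 (adjusted p = 0.0269). The count divided by the FPKM and by the library total gives the length at which both tables would match, a check and not a measured length. It was 0.136 kb for H2-DMb2 (median of 6 libraries) and between 1.94 and 11.9 kb for the other members, so the count table holds few H2-DMb2 reads for its FPKM. The transcripts of H2-DMb1 and H2-DMb2 share stretches: 22.7% of the 50-base words of H2-DMb1 occur in H2-DMb2, and 21.2% the other way. No other pair among the 10 genes shares a word of that length. The counts of both genes are therefore uncertain, and the cause of the difference between the tables was not tested.

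DO, the partner that restrains DM, is best known from B cells. Both of its chains were scarce. H2-Oa, the alpha chain, was steady in spleen and marrow at 3.90, 3.69 and 3.97 CPM (34, 27 and 37 counts). In kidney it held 3, 31 and 0 counts, or 0.356, 3.92 and 0 CPM. Kidney replicate 8 was thus level with spleen and marrow and the other kidney libraries were below it. A count of 0 in replicate 22 allows up to 0.881 CPM (3 counts, counting error only), and the authors' FPKM table lists 0.528 for that library. The log2 fold change was -1.33 ± 1.04, without a call (edgeR adjusted p = 0.451). Without kidney replicate 8 it was -3.98 ± 0.90, a call (adjusted p = 0.0349). H2-Ob, the beta chain, had 11, 3 and 16 counts in spleen and marrow and 7, 25 and 0 in kidney. That is 1.26, 0.410 and 1.71 CPM against 0.830, 3.16 and 0 CPM, and the groups overlapped.

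Ciita itself was low and varied between libraries. It stood at 12.3, 6.98 and 6.11 CPM in spleen and marrow. The kidney values were 21.9, 64.7 and 11.2 CPM. The groups overlapped, because replicate 22 lay below spleen and marrow replicate 2. With 38 counts in replicate 22 the 95% exact Poisson interval ran from 7.90 to 15.3 CPM, below kidney replicates 7 and 8. The log2 fold change was 1.96 ± 0.63, which missed the threshold (edgeR adjusted p = 0.0804). It passed without kidney replicate 22 (2.34, edgeR adjusted p = 0.013) and with DESeq2 on all libraries (1.92, DESeq2 adjusted p = 0.0171), and missed the threshold in the other 16 alternatives. Without kidney replicate 8 the log2 fold change was 0.96 ± 0.46. Kidney replicate 22 had the lowest Ciita CPM in the kidney group, whereas its H2-Aa, H2-Ab1 and H2-Eb1 levels were close to those of replicate 7. That library also had the fewest total counts (3492391), and 752 tested genes had a count of 0 in it alone. Dexi, a gene that overlaps Ciita on the opposite strand, stood at 17.5 ± 2.06 CPM in spleen and marrow and 18.9 ± 1.31 CPM in kidney (mean ± SD, n = 3 each). The libraries do not mark strand.

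Levels per transcript length can be compared between genes in the FPKM table, with limits. That table lists Lyz2 at 0 in spleen and marrow replicate 26, where its count was 502608. For H2-Ab1 the length at which both tables match was 3.05 kb in kidney replicate 22, against a median of 2.28 kb. It was likewise larger there for H2-Aa, H2-Eb1, Cd74, H2-DMa and H2-DMb1, so their FPKM in that library is low for their counts. The kidney FPKM means and limma-trend results carry this offset. In kidney, Cd74 was the most abundant member (3025 ± 1727 FPKM, mean ± SD, n = 3), followed by H2-Ab1 (2151 ± 1486), H2-Aa (1747 ± 1207) and H2-Eb1 (680 ± 413). The ranges of neighbours among these 4 overlapped, although the order held in each of the 3 kidney libraries. Next came H2-DMb1 (207 ± 107 FPKM) and H2-DMa (194 ± 66.6 FPKM), which did not keep 1 order, with H2-DMa above H2-DMb1 in 2 of 3 kidney libraries. H2-DMb2 followed at 54.4 ± 29.8 FPKM, a place that rests on the FPKM table alone, since its counts were far fewer than that value implies. Then Ciita, H2-Oa and H2-Ob lay at 2.89 ± 2.73, 0.903 ± 0.993 and 0.227 ± 0.270 FPKM. In spleen and marrow H2-Eb1 was sixth, at 35.2 ± 3.43 FPKM, below H2-DMa at 99.8 ± 6.46 and H2-DMb1 at 53.5 ± 4.96 FPKM in each library. H2-Oa lay above Ciita there in each library and below it in each kidney library.

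Ratios within a library do not depend on how libraries are scaled to each other. H2-Aa held a near constant share of H2-Ab1: 81.8%, 79.8% and 84.4% of its FPKM in spleen and marrow, and 84.0%, 81.0% and 78.0% for kidney. The ranges of the I-A chain ratio overlapped although both chains rose. Cd74 was 165% ± 5.57 of H2-Ab1 in spleen and marrow and 149% ± 21.8 in kidney (mean ± SD, n = 3 each), with overlapping groups. H2-Eb1 was 19.0%, 24.3% and 23.4% of H2-Ab1 in spleen and marrow and 33.7%, 29.9% and 34.7% in kidney, without overlap. Ciita was 0.498%, 0.464% and 0.332% of H2-Ab1 in spleen and marrow and 0.120%, 0.156% and 0.0778% in kidney, again without overlap. H2-Oa was 1.85%, 2.30% and 1.91% of H2-DMa against 0.0923%, 0.750% and 0.358%, and each kidney library was lower. H2-Ob was 0.241%, 0.0828% and 0.318% of H2-DMa against 0.0947%, 0.194% and 0, a value at which no log ratio exists.

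Of the 5 ratios with a log value, 3 separated the groups. For those 3, H2-Eb1 over H2-Ab1, Ciita over H2-Ab1 and H2-Oa over H2-DMa, the log2 difference between kidney and spleen and marrow was 0.57, -1.91 and -2.79. Each had p = 0.1 in a two-sided exact permutation test, the smallest that 3 libraries against 3 allow, and p = 0.167 after Benjamini-Hochberg adjustment over the 5. The H2-Oa over H2-DMa difference was -1.96 when kidney replicate 7 was left out and -3.47 when replicate 8 was, and its value in replicate 22 rests on the FPKM of a gene with 0 counts there. For H2-Aa over H2-Ab1 the difference was -0.02 (exact p = 0.7) and for Cd74 over H2-Ab1 it was -0.15 (exact p = 0.4).

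**Figure D2:**
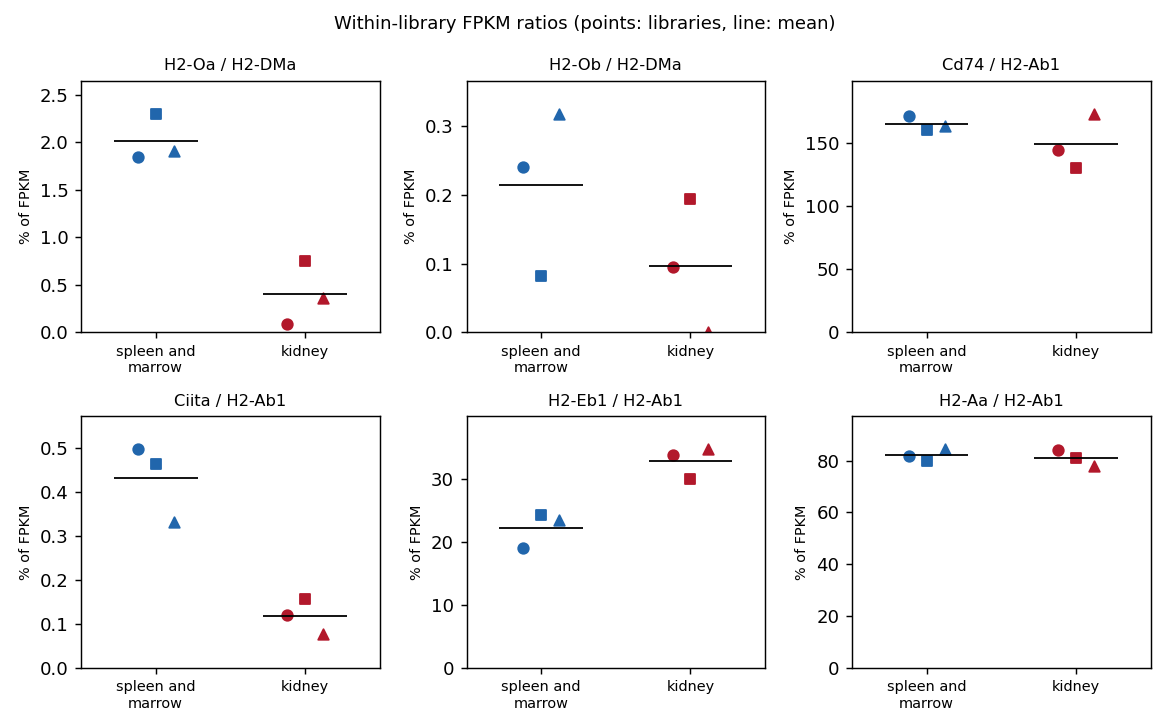
FPKM of the first gene as a percentage of the second in each library (points) with the group mean (line); each axis starts at 0. H2-Aa over H2-Ab1 is level between groups, H2-Eb1 over H2-Ab1 is higher in each kidney library, and Ciita over H2-Ab1 and H2-Oa over H2-DMa are lower in each kidney library.

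Within each group 1 library was the highest for most members. Kidney replicate 8 was the highest kidney library for 9 of the 10 members, the exception being H2-DMb2. Its level over the mean of replicates 7 and 22 was 2.49 for H2-Aa, 2.46 for H2-Ab1, 2.14 for H2-Eb1 and 2.05 for Cd74. The same quotient was 1.44 for H2-DMa, 1.83 for H2-DMb1 and 3.91 for Ciita. Spleen and marrow replicate 2 was the highest of its group for 7 members, with H2-DMb2, H2-Oa and H2-Ob highest in replicate 26. There Ciita stood at 1.88 times the mean of the other spleen and marrow libraries, H2-Ab1 at 1.503 and H2-DMa at 1.13. In both groups these quotients were larger for Ciita than for H2-Aa, H2-Ab1, H2-Eb1, Cd74, H2-DMa and H2-DMb1. Those of H2-Oa and H2-Ob in kidney, 22.04 and 7.62, were larger still and rest on few counts.

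Class II promoters share letters known as the X box, bound by RFX, and the Y box, bound by NF-Y, at which CIITA is recruited. Promoter windows of 300 bases (250 upstream of each start) from RefSeq were present for 7 of the 10 members on build GRCm38.p6. The files name mm9, so these coordinates belong to the sequence table and not to the counts. The motifs searched on both strands were AACNNATG, taken from the X box, and TGATTGG, which holds the inverted CCAAT of the Y box. Both were chosen after the windows had been read. The windows around them are shown so that the members that rose can be read beside those that did not, each as the strand of its gene, 5′ to 3′, with motif letters in capitals.
H2-Eb1: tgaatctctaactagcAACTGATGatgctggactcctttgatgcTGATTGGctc
H2-DMb1: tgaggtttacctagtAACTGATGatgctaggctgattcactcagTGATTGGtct
H2-DMb2: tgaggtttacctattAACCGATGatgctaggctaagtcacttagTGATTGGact
H2-Ob: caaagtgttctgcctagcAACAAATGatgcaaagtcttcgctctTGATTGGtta
H2-Aa: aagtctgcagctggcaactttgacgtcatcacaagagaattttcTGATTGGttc
H2-Oa: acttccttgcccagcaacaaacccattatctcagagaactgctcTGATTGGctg

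These windows lie at chr17:34305762-34305815 (H2-Eb1, plus strand), chr17:34153084-34153137 (H2-DMb1, plus), chr17:34145113-34145166 (H2-DMb2, plus), chr17:34238802-34238855 (H2-Ob, plus), chr17:34287864-34287917 (H2-Aa, minus) and chr17:34092290-34092343 (H2-Oa, plus), all upstream of the annotated start. H2-Eb1, H2-DMb1, H2-DMb2 and H2-Ob hold both motifs in the same order, with 18 to 21 bases between them. H2-Aa and H2-Oa hold TGATTGG without AACNNATG, and neither of the 2 windows of H2-DMa holds either. A window without these exact letters may still hold an X or Y box in other letters, which was not tested. Over all 32851 promoter windows, 8.86% hold AACNNATG and 7.82% hold TGATTGG on either strand. The pair, 15 to 35 bases apart on the same strand, is in 14 windows (0.0426%), of which 4 are the members named and 1 is H2-Eb2. The only tested gene among the other 9 windows was Bscl2, with a log2 fold change of -0.42 ± 0.17 and no call (edgeR adjusted p = 0.158). The pair of motifs is thus found before genes that rose (H2-Eb1, H2-DMb1), before genes without a call (H2-DMb2) and before genes with few or almost no counts (H2-Ob, H2-Eb2).

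Along the chromosome the members are interspersed with other genes. In GENCODE order, 15 coding genes and pseudogenes run from H2-Oa to H2-Ea-ps. The class I peptide supply genes Psmb9, Tap1, Psmb8 and Tap2 sit between H2-DMb1 and H2-Ob, and Brd2, a chromatin reader, sits beside H2-DMa, which it overlaps in part. None of these 5 passed the test on all libraries, and Tap2 was called higher without kidney replicate 7. Psmb8, an immunoproteasome subunit, stood at 961 ± 109 CPM in spleen and marrow and 834 ± 220 CPM in kidney (mean ± SD, n = 3 each), and the transporter gene Tap1 at 41.5 ± 2.23 and 54.6 ± 4.98 CPM. Over all tested genes 7.83% were called higher and 5.9% lower. Of the 13 listed genes in and beside the region, 11 were tested and 0 passed in either direction with edgeR. Of these, Pbx2, Tap1, Tap2 and Ager had an unadjusted p under 0.05, and DESeq2 called Pbx2 higher. Pbx2 was also called without kidney replicate 8, and Notch4 without kidney replicate 22.

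**Figure D3:**
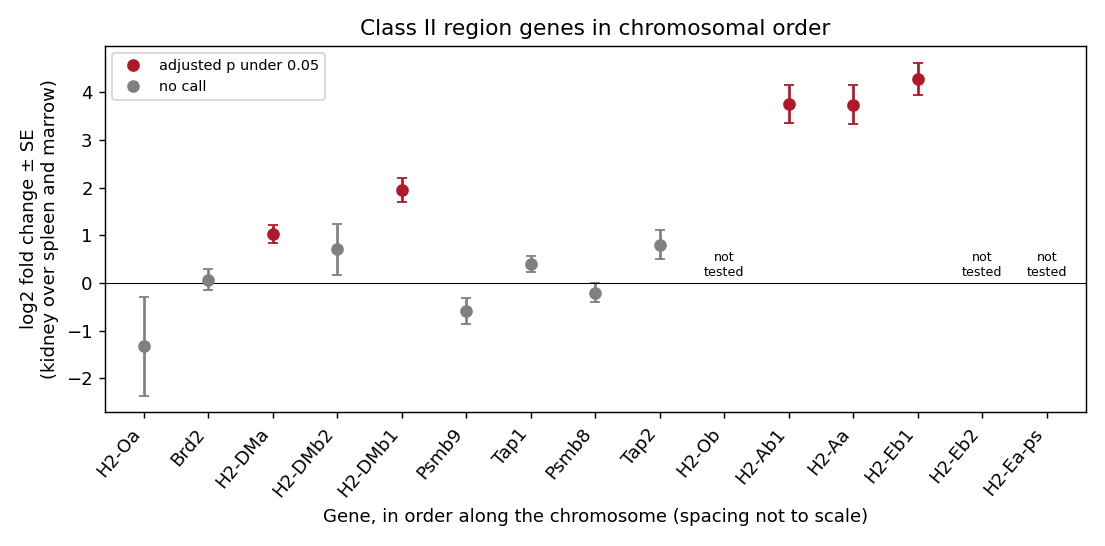
log2 fold change (kidney over spleen and marrow) with its standard error for genes of the class II region in chromosomal order, spacing not to scale; red points passed edgeR's test at an adjusted p under 0.05. The rises of H2-DMa and H2-DMb1 are separated from those of H2-Ab1, H2-Aa and H2-Eb1 by 4 uncalled genes and H2-Ob, which was not tested.

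Related genes were followed in 6 lists of 47 entries, of which 44 had a row and 40 were tested. Of these 8 rose and 1 fell, against the shares of 7.83% and 5.9% over all tested genes. The 7 genes of CIITA's promoter partners showed no call in either direction. The RFX subunit genes Rfxank and Rfxap stood at 52.6 ± 2.32 and 75.2 ± 3.78 CPM in spleen and marrow and at 62.2 ± 10.1 and 77.6 ± 5.09 CPM in kidney (mean ± SD, n = 3 each). Rfx5 was low in both, at 2.62 ± 0.783 and 3.99 ± 2.57 CPM. Nfyb, an NF-Y subunit gene, was at an unadjusted p under 0.05 and its log2 fold change was -0.48 ± 0.18 (edgeR adjusted p = 0.125). It was called lower without kidney replicate 22.

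Of 12 genes that act on Ciita or its induction, 2 rose and 0 fell by edgeR, against 7.83% and 5.9% of all tested genes. In 6 of these 12 each kidney library lay above each spleen and marrow library, against 19.2% of all tested genes. In 2, Usf1 and Spi1, each kidney library lay below, against 18.8%. Their log2 fold changes were -0.56 ± 0.21 and -0.30 ± 0.12, without a call (edgeR adjusted p = 0.124 and 0.157). DESeq2 called Spi1 lower. Ifngr1, the ligand-binding chain of the interferon gamma receptor, stood at 247, 332 and 378 CPM in spleen and marrow and at 599, 468 and 501 CPM in kidney. It rose by a log2 fold of 0.71 ± 0.19 (edgeR adjusted p = 0.0423), and unlike the class II chains it was highest in kidney replicate 7. Socs1, a feedback inhibitor of interferon signalling, stood at 9.19, 6.16 and 6.11 against 12.9, 29.7 and 38.5 CPM. It rose by a log2 fold of 1.90 ± 0.44 (edgeR adjusted p = 0.0262). Leaving out any of the spleen and marrow libraries ended both calls (adjusted p up to 0.142 and 0.131), that of Ifngr1 also without kidney replicate 7 and that of Socs1 also without kidney replicate 8. Irf1, a transcription factor that acts at Ciita, was not called (edgeR adjusted p = 0.0729), with 0.60 ± 0.19 on the log2 fold scale. It was called higher with DESeq2, with the filter of at least 50 counts in 3 libraries, and without kidney replicate 22.

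The proteases that cut antigen and the invariant chain made up 5 of the 8 related genes that rose. Of 9 processing genes 5 rose and 1 fell, against 7.83% and 5.9% of all tested genes. Lgmn, an endopeptidase, stood at 65.8, 76.5 and 77.2 CPM in spleen and marrow and 776, 662 and 472 CPM in kidney. Lgmn rose by a log2 fold of 3.12 ± 0.21 (edgeR adjusted p = 0.000387). Ctss, the cathepsin that completes the trimming of the invariant chain, stood at 2266, 2511 and 2674 CPM in spleen and marrow and at 5626, 5614 and 4714 CPM in kidney. It rose by a log2 fold of 1.10 ± 0.13. Ctsl and Ctsd, further cathepsins, rose by log2 folds of 1.57 ± 0.18 and 1.08 ± 0.12. Lgmn, Ctss, Ctsl and Ctsd were called in all 18 alternatives. Ctsb rose by 0.69 ± 0.13, which leaving out any of the spleen and marrow libraries ended (adjusted p up to 0.0784). Lgmn was highest in kidney replicate 7 and Ctsl and Ctsd in replicate 22, unlike the class II chains. Ifi30, a thiol reductase of the endosome, fell by 0.45 on the log2 scale (edgeR adjusted p = 0.0415), from 1270 ± 94.5 to 931 ± 44.6 CPM. This call was lost in 12 of 18 alternatives, among them leaving out any 1 library but kidney replicate 22 (adjusted p up to 0.139).

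Cd83, whose protein helps keep class II at the cell surface, rose. It stood at 4.71, 3.83 and 3.64 CPM in spleen and marrow and at 15.5, 37.5 and 13.8 CPM in kidney, highest in replicate 8. Its log2 fold change was 2.46 ± 0.46 (edgeR adjusted p = 0.012), a call that leaving out any of the spleen and marrow libraries ended (adjusted p up to 0.0798). March1 and March8, ubiquitin ligases that remove class II, had no row under those symbols.

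**Figure D4:**
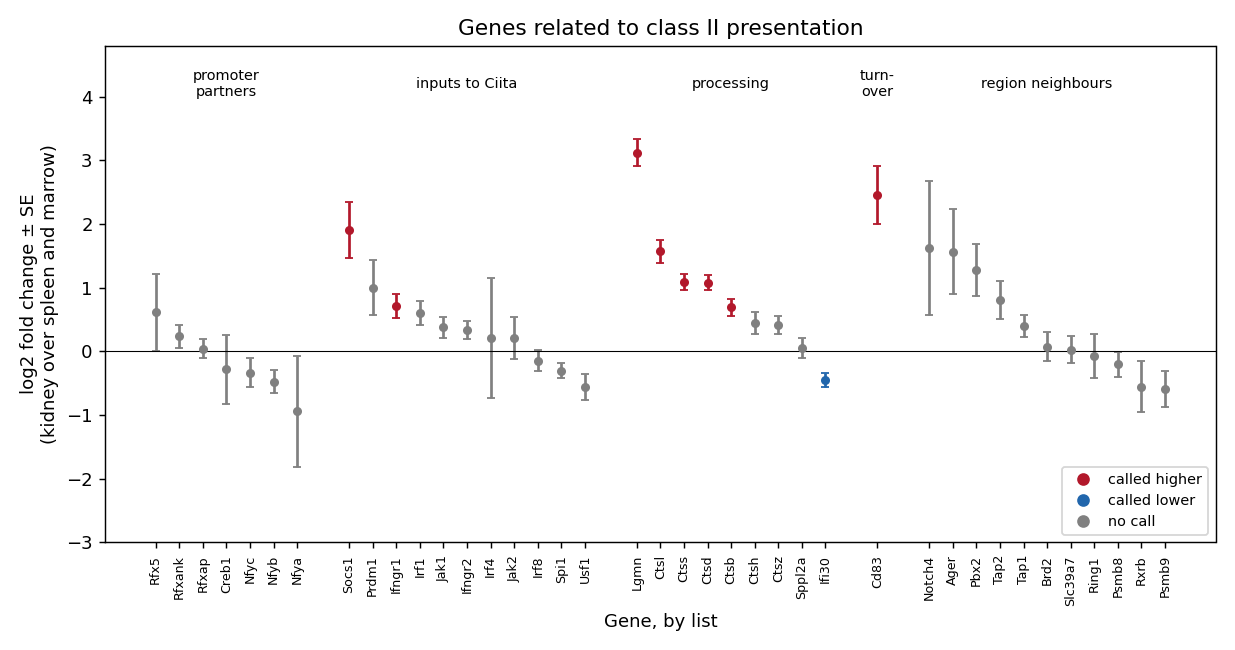
log2 fold change (kidney over spleen and marrow) with its standard error for tested related genes, grouped by list; red and blue mark genes called higher and lower by edgeR. Of the 8 genes called higher 5 are processing proteases, with Lgmn at 3.12. None of the 7 promoter partners and none of the 11 region neighbours was called. Over all tested genes 7.83% were called higher and 5.9% lower, so lists of that size would hold few calls.

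The genes nearest to the class II profile were sought over the 6 libraries. The measure was the root mean square distance between log2 CPM profiles, each centred on its own mean, from the average of H2-Aa, H2-Ab1, H2-Eb1 and Cd74. Those 4 lay within 0.0633 to 0.247 of their own average, whereas H2-DMb1 lay at 0.931, Ciita at 1.148 and H2-DMa at 1.39. Among the nearest outside the members were Mylk (0.222), Iigp1 (0.279), Cxcl9 (0.280), Myo1d (0.303), Il1b (0.304), Trim47 (0.336) and Cnn3 (0.348). Mylk and Myo1d were each under 10 CPM in every library. Cxcl9, a chemokine known to be induced by interferon gamma, stood at 11.1, 6.29 and 6.54 CPM in spleen and marrow and at 99.5, 294 and 114 CPM in kidney. Iigp1, an interferon-inducible GTPase, and the cytokine gene Il1b rose by log2 folds of 4.45 ± 0.57 and 3.32 ± 0.36. In spleen and marrow Iigp1 stood at 0.689, 0.410 and 0.857 CPM, near the floor of 3 counts, so its fold size is uncertain. Trim47 lay at 0.574, 0.684 and 0.643 CPM there. Genes picked for nearness to the class II average were bound to be higher in kidney, so these rises add no support. Nearest to Ciita were Enpp4 (0.283), Traf1 (0.298), Ptger4 (0.305), Ralgds (0.320) and Batf2 (0.358).

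Class II is also made by other cells, whose markers were followed in the same libraries. The 12 B cell markers summed to between 29.97 and 33.5 CPM in spleen and marrow and between 34.4 and 47.6 CPM in kidney, most of it from Cd79b. Fcer2a was at 0 in all 6 libraries. The 10 classical dendritic cell markers summed to between 49.2 and 74.6 CPM in spleen and marrow and between 97.8 and 135 CPM in kidney. Of them 5 were tested and 1 rose, against 7.83% of all tested genes. This was Batf3, a transcription factor: its mean was 16.5 ± 4.47 CPM in spleen and marrow and 77.9 ± 14.3 CPM in kidney (± SD, n = 3 each). Xcr1, Clec9a and Zbtb46 were each under 5 CPM in every library, and at 0 in kidney replicate 22, the library with the fewest total counts. Clec9a, Zbtb46 and Fscn1 were highest in kidney replicate 8, and Flt3 in kidney replicate 7 (52.1 CPM). Xcr1 was lower in each kidney library than in each spleen and marrow library. The 6 plasmacytoid dendritic cell markers summed to at most 98.4 CPM, Siglech was at 0 in all kidney libraries, and the member called higher was Klk1, a gene also known from kidney tubule.

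Larger shifts were seen in some of the other lists. The 9 tissue macrophage markers summed to between 93.5 and 105 CPM in spleen and marrow and between 4833 and 5904 CPM in kidney. Of the 8 tested members 7 were called higher, against 7.83% of all tested genes, and Vsig4 was at 0 in kidney. Unlike the class II sum, the macrophage sum differed little between the kidney libraries. The 10 endothelial markers summed to between 8.07 and 13.0 CPM in spleen and marrow and between 20.6 and 909 CPM in kidney, with Ehd3 at 0 in all spleen and marrow libraries. The 10 kidney tubule markers summed to at most 0.684 CPM in spleen and marrow and to between 199 and 1291 CPM in kidney. The 8 T and NK cell markers summed to at most 10.8 CPM in any library. The neutrophil sum was between 23372 and 30025 CPM in spleen and marrow and between 1074 and 43717 CPM in kidney, with overlapping groups. The part of macrophages, dendritic cells, endothelial cells and neutrophils in the class II difference was not tested. In bulk samples, a change in the number of cells that carry a transcript and a change in transcript per cell cannot be told apart.

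**Figure D5:**
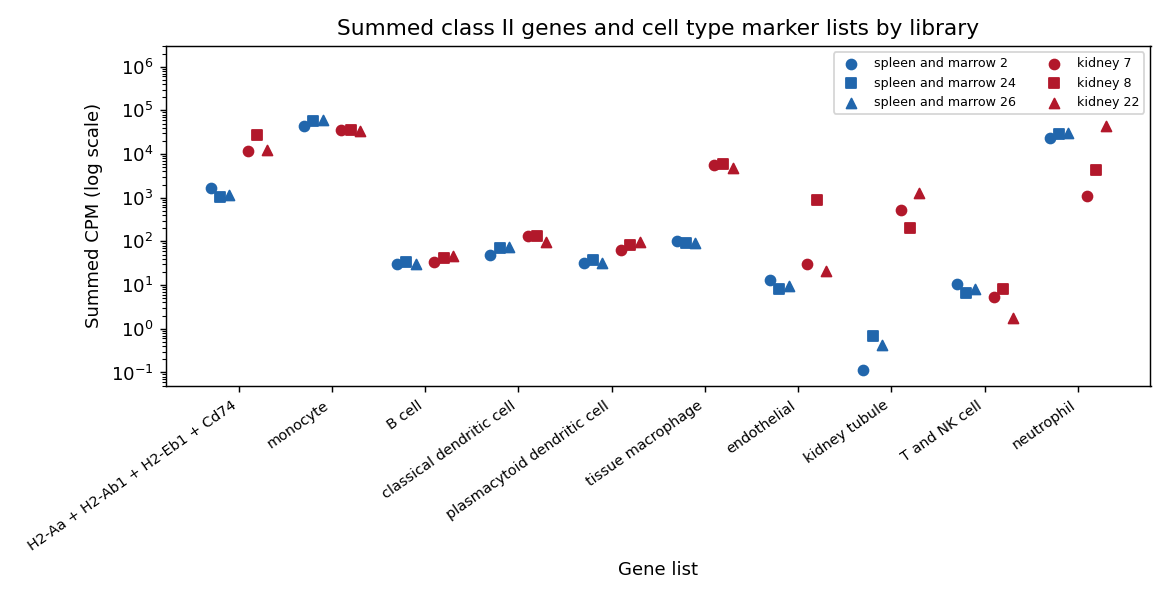
Summed CPM (log axis) of H2-Aa, H2-Ab1, H2-Eb1 and Cd74 and of each cell type marker list in the 3 spleen and marrow libraries (blue) and the 3 kidney libraries (red). Class II and tissue macrophage sums are higher in each kidney library, while the endothelial sum is highest in kidney replicate 8 (909 CPM) and the neutrophil sum in kidney replicate 22 (43717 CPM).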

How the data were processed

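RNA of 6 monocyte libraries was sequenced, 3 per group. Per the labels' protocols, cDNA was made from 2 ng of RNA with SMART-Seq v4 reagents and sheared to about 150 bp, a chemistry that does not mark strand. The authors deposited raw counts per gene symbol (24047 rows) and FPKM values (24043 rows). The submitters' processing notes list bcl2fastq 2.18, STAR 2.5, Cufflinks 2.2.1 and build mm9 without roles. How reads were counted, and on which annotation, is not given in the sources used here. The 92 spike-in rows held no counts.

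Counts were filtered with filterByExpr (10626 genes), scaled with TMM and tested with edgeR 4.0.16 (quasi-likelihood F test, two-sided, Benjamini-Hochberg over all tested genes, called under 0.05) in R 4.3.3. The standard error is the log2 fold change divided by the square root of F. The floor of 3 counts is 0.322 to 0.881 CPM, depending on the library. Intervals and floors cover counting error only. The fit was tested on simulated data. FPKM values were used for levels between genes, within-library ratios and limma-trend (limma 3.58.1). DESeq2 1.42.0 was an alternative. Figures used matplotlib 3.10.9.

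Sequences came from RefSeq (GRCm38.p6), transcripts and gene order from GENCODE vM21. Named genes were all members, the called related genes with uncalled ones for context, the 8 and 5 nearest profiles, and marker genes. A few genes under these rules are not reported here. The uncalled genes named, and the promoter motifs, were chosen after their values or sequences were seen. Members, lists and tests were chosen with earlier results of these data known. Replicates of a group are samples the labels number separately.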

Additional observations from a re-analysis of the deposited data

How the results depend on the processing

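Between 5 and 7 members were called higher on leaving out any 1 library and between 0 and 1 lower, the latter H2-Oa without kidney replicate 8. H2-DMa was called in 11 of 18 alternatives, and H2-Aa, H2-Ab1, H2-Eb1, Cd74 and H2-DMb1 in all 18. Among the 9 members tested in the main fit, no log2 fold change changed sign. H2-Ob was left out of that comparison. The cause of the changes below was not tested. Over all genes, against 832 higher and 627 lower, DESeq2 called 1420 and 1015, a threshold of 0.01 called 322 and 189, and summing spleen and marrow replicates 24 and 26 gave 299 and 201. Limma-trend gave 468 higher and 629 lower on log2(FPKM + 1) and 543 and 586 on log2(FPKM + 0.1), and limma-voom 737 and 838. Leaving out 1 library gave 260 to 1569 higher and 179 to 1215 lower, lowest without spleen and marrow replicate 26 and highest without kidney replicate 22. Of related genes, against 8 higher and 1 lower, log2(FPKM + 1) called 5 higher, and the threshold of 0.01 and the sum of replicates 24 and 26 called 4 each. Leaving out 1 library gave 4 to 11 higher and 0 to 2 lower. Related genes called lower numbered 2 with DESeq2 and 0 with library size scaling, no filter, at least 50 counts in 3 libraries, both FPKM scales, the threshold of 0.01 and the summed replicates. The log2 difference of the H2-Aa over H2-Ab1 ratio, -0.02, changed sign without spleen and marrow replicate 26 (0.00281) and without kidney replicate 22 (0.00871), and lay between -0.0443 and 0.00871 on leaving out any 1 library. No paired analysis was possible because the groups share no replicate number. Few counts limit H2-Oa, H2-Ob and H2-DMb2, each under 50 counts in every library, and why H2-DMb2 had few was not tested.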
